A study of Mus musculus with 18 samples.

Results

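The integrin, laminin and nidogen genes were followed in mouse knee cartilage after destabilisation of the medial meniscus (DMM), an operation that frees a meniscus and leads to osteoarthritis. All probes were taken whose annotated gene symbol begins with *Itga*, *Itgb*, *Lama*, *Lamb*, *Lamc* or *Nid* and a subunit name, leaving out 3 probes of the integrin-binding proteins *Itgb1bp1* and *Itgb3bp*. This gave 43 of the 22999 probes in the table, for 30 of the 11499 genes with a probe of their own: 30 probes of 20 integrin genes, 10 probes of 8 laminin genes and 3 probes of 2 nidogen genes. Of these genes 20 had 1 probe, 8 had 2, *Itga11* had 3 and *Itgav* had 4. Where a gene had several, the probe with the highest mean over all arrays stood for it, and the others are given where their sign or test differed. Other genes of these families, such as *Itga7*, *Itga10* and *Itgal*, were not analysed here.

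The groups were DMM cartilage 2, 4 and 8 weeks after surgery and contralateral cartilage at the same weeks, with 3 arrays each and 18 in all. The mice were male C57Bl6/J, operated on the right knee and aged 12, 14 and 18 weeks at the 3 collections, and the unoperated left knee served as the control, since no sham-operated group was among the samples. Each array measured RNA from cartilage of the tibia on its medial side (the medial tibial plateau, MTP), pooled over 8 mice, so the tests measure the spread between pools. Both knees of the same mice were used at each week, and no source tells which DMM and contralateral pools belong together.

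Integrins are cell surface receptors made of an alpha and a beta subunit, which together decide whether the cell holds on to collagen, laminin, fibronectin or another cell. Laminins are cross-shaped trimers of an alpha, a beta and a gamma chain that form the sheet of a basement membrane, and nidogens bridge that sheet to type IV collagen. Chondrocytes have no continuous basement membrane, but these proteins are known in the pericellular matrix that wraps each cell, where integrins link the matrix to the cytoskeleton.

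Values are log2 expression levels, and differences are DMM minus contralateral on that scale. The range was 4.62 to 14.67 on each array and the medians were 6.55 to 6.56, and the median correlation of an array with its own group was 0.932 to 0.981. Of 16 chondrocyte markers 15 were measured, with a mean level of 9.64 to 10.16 over the arrays, where the median probe averaged 6.53. Fibroblast and synovium markers were at 9.07 to 10.76 and osteoblast and osteocyte markers at 8.63 to 9.36. The level alone thus does not tell which cell type gave most RNA. At 2 weeks 1 of the 15 chondrocyte markers rose and 3 fell in DMM cartilage. Among all genes, by their probe with the highest mean, 4.07% rose and 3.16% fell at 2 weeks, and 0.452% and 0.348% at 4 weeks. Several markers of other cells moved with surgery. Of the 14 fibroblast and synovium markers measured, 11 rose in DMM cartilage at 2 weeks and 4 at 4 weeks. Their mean level at 2 weeks was 10.61 to 10.76 in DMM cartilage, against 9.11 to 9.90 in contralateral cartilage. It stayed without overlap at 4 weeks (9.93 to 10.42 in DMM cartilage, against 9.07 to 9.75) and at 8 weeks (9.94 to 10.23 in DMM cartilage, against 9.43 to 9.65). Skeletal muscle markers fell, 13 of 14 at 2 weeks and 12 of 14 at 4 weeks, and their mean level at 2 weeks was 5.85 to 6.58 in DMM cartilage, against 7.68 to 8.44 in contralateral cartilage. In the same comparison 3 of 12 macrophage markers rose, with a mean level of 7.65 to 7.94 in DMM cartilage, against 7.15 to 7.42 in contralateral cartilage. Of the endothelial markers, 1 of 10 rose. Their mean levels were 6.60 to 6.73 in DMM cartilage, against 6.16 to 6.63 in contralateral cartilage. These ranges overlapped, with group means of 6.68 and 6.35. Adipocyte markers had a mean level of 6.41 to 6.70 in DMM cartilage at 2 weeks, against 6.96 to 9.31 in contralateral cartilage, and 3 of 8 fell. Without overlap at 2 weeks were also erythroid markers (6.64 to 7.04 in DMM cartilage, against 7.25 to 7.97 in contralateral cartilage), Schwann cell and nerve markers (7.47 to 7.50 in DMM cartilage, against 7.66 to 7.94) and osteoclast markers (6.83 to 6.91 in DMM cartilage, against 6.57 to 6.65). Of all single probes, 13.6% lay wholly above and 13.4% wholly below contralateral cartilage at 2 weeks, and 9.18% and 7.29% lay wholly above at 4 and 8 weeks. The part of these markers in the results that follow was not tested, and in pooled tissue fewer cells of a type and less RNA per cell cannot be told apart.

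**Figure D1:**
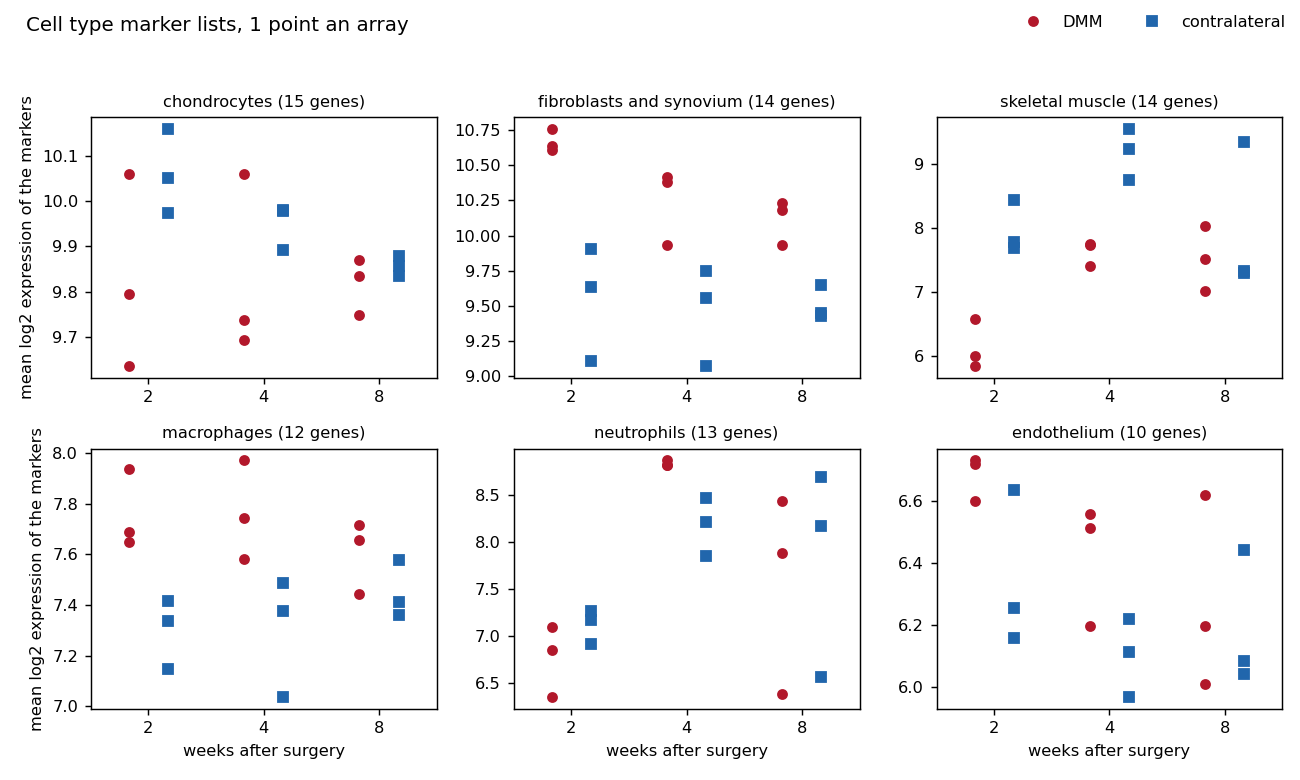
Mean log2 expression of 6 marker lists (vertical axis) by week after surgery (horizontal axis), 1 point for each array, DMM red circles left of contralateral blue squares. Fibroblast and synovium markers of the 3 DMM arrays at 2 weeks lie at 10.61 to 10.76, above the contralateral arrays at 9.11 to 9.90, and neutrophil markers stand highest in DMM cartilage at 4 weeks.

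At 2 weeks 8 member probes were up-regulated in DMM cartilage and 1 was down-regulated (limma, Benjamini-Hochberg adjusted p under 0.05 over all probes). Up-regulated were *Lamb1*, *Nid2*, all 3 probes of *Itga11* and 1 of 2 probes of *Itga9*, *Itgb1* and *Lamc1*, and down-regulated was 1 of 2 probes of *Nid1*. Among all probes 3.33% rose and 3.3% fell. Counted by the probe with the highest mean of each of the 30 genes, 3 rose and 1 fell, where 4.07% of all genes rose and 3.16% fell. The probes of *Itga9*, *Itgb1* and *Lamc1* that passed were not those with the highest mean. The median difference of the 43 members was 0.17, against -0.00 for all probes, and 29 of the 43 were higher in DMM cartilage. All 3 DMM arrays lay above all 3 contralateral arrays for 13 members and below them for 2, against 13.6% and 13.4% of all probes. The count of 9 member probes became 2 without DMM replicate 2, and also 2 without replicate 3. Calls among all probes fell too, from 765 up and 760 down to 390 and 424 in either direction without these replicates.

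At 4 weeks *Lamb1* was the only member past the threshold, with none lower, where 0.343% of all probes rose and 0.296% fell. DMM arrays lay wholly above contralateral arrays for 10 members and wholly below for 3, against 9.18% and 9.07% of all probes. At 8 weeks 0 members passed in limma, as did 0% of all probes. At an unadjusted p under 0.05 there were 5 members higher and 1 lower at 8 weeks, and 1040 of all probes higher and 953 lower. The groups did not overlap at 8 weeks for 6 members above and 1 below, against 7.29% and 7.41% of all probes.

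When the difference was averaged over the 3 weeks in 1 fit of all 18 arrays, 7 member probes were higher in DMM cartilage and 2 were lower, where 4.81% of all probes were higher and 5.14% lower. Their median difference was 0.14, against -0.00 for all probes. The DMM arrays lay above the contralateral arrays of their week at each of the 3 weeks for 3 members, *Lamb1*, *Itga11* (ILMN_2701778) and *Nid2*, which is 6.98% of the members, against 0.996% of all probes. For 0 members did they lie below at each week, against 0.965% of all probes.

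**Figure D2:**
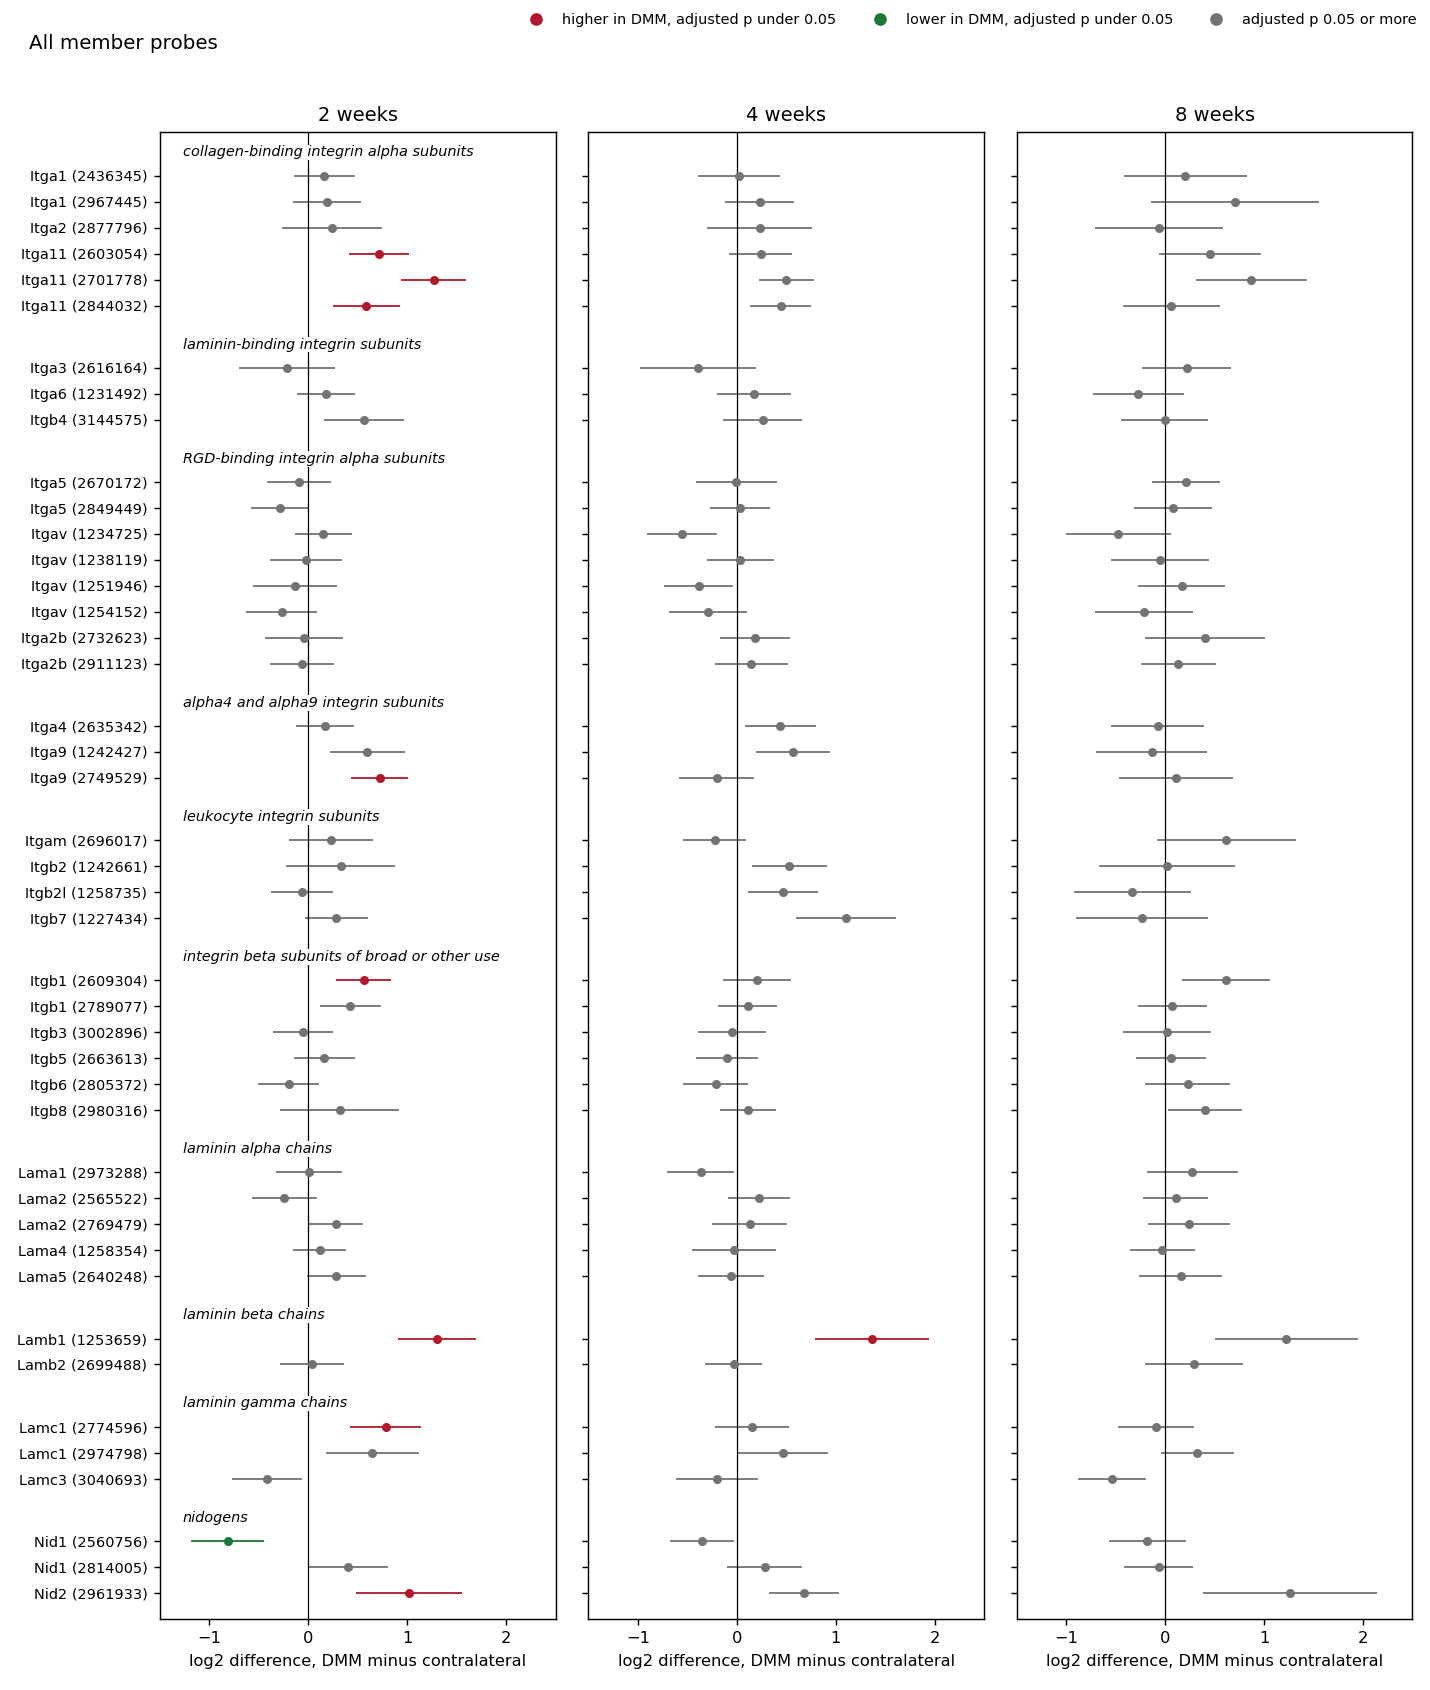
Log2 difference, DMM minus contralateral, with its 95% confidence interval (horizontal axis), for each of the 43 member probes (vertical axis, gene and probe number, grouped by role) at 2, 4 and 8 weeks; red marks probes higher and green probes lower in DMM at an adjusted p under 0.05. The 9 coloured probes at 2 weeks and *Lamb1* alone at 4 weeks are those past the threshold.

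*Lamb1* encodes the laminin beta1 chain, a part of many laminin trimers. At 2 weeks its probe (ILMN_1253659) measured 9.01, 9.52 and 9.23 in DMM cartilage, against 8.20, 7.64 and 8.03 in contralateral cartilage. The groups were well apart, and the difference of 1.30 (SE 0.18), or 2.46-fold, had an adjusted p of 0.00335 in limma. At 4 weeks it measured 7.86, 8.91 and 8.89 in DMM cartilage, against 6.83, 7.26 and 7.47 in contralateral cartilage. DMM replicate 1 was the lowest of its group but still above all contralateral arrays, and the difference was 1.37 (SE 0.26, adjusted p = 0.0466). This call at 4 weeks was near the threshold. It did not survive leaving out any contralateral pool (adjusted p = 0.139, 0.0892 and 0.0541 for replicates 1, 2 and 3), nor DMM replicate 2 or 3 (0.153 and 0.208). Under robust variances with an intensity trend *Lamb1* also missed the threshold (0.0671).

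At 8 weeks *Lamb1* measured 8.17, 8.68 and 7.99 in DMM cartilage, against 7.12, 7.65 and 6.39 in contralateral cartilage. The arrays were again separate, with a difference of 1.23 (SE 0.32), but the adjusted p was 0.412. Averaged over the weeks the difference was 1.30 (SE 0.18, adjusted p = 0.000132), and the SE was larger at each later week. Levels themselves were lower at later weeks in both knees: against 2 weeks, the 4-week level differed by -0.70 in DMM cartilage (adjusted p = 0.191) and by -0.77 in contralateral cartilage (adjusted p = 0.33).

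*Itga11* encodes the alpha11 subunit, which with beta1 forms a receptor for fibrillar collagen that is known from fibroblasts and other mesenchymal cells. At 2 weeks the probe with the highest mean (ILMN_2701778) measured 7.82, 7.85 and 7.68 in DMM cartilage, against 6.76, 6.32 and 6.47 in contralateral cartilage. The DMM pools were close to each other and far above the contralateral pools, with a difference of 1.27 (SE 0.15), or 2.40-fold (adjusted p = 0.00162). At 4 weeks it measured 7.30, 7.36 and 7.38 in DMM cartilage, against 6.81, 6.82 and 6.91 in contralateral cartilage. Neither group spread by much and they did not overlap, yet the difference of 0.50 (SE 0.13) did not pass (adjusted p = 0.0978). At 8 weeks the values were 7.60, 7.97 and 7.56 in DMM cartilage, against 7.34, 6.43 and 6.74 in contralateral cartilage, still without overlap (0.87, SE 0.25, adjusted p = 0.432). The mean over the weeks was 0.88 (SE 0.11, adjusted p = 4.51e-05), the member with the smallest adjusted p there.

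At 2 weeks the other *Itga11* probes moved the same way. ILMN_2603054 measured 6.52, 6.71 and 6.57 in DMM cartilage at 2 weeks, against 5.89, 5.72 and 6.05 in contralateral cartilage, a difference of 0.72 (SE 0.14, adjusted p = 0.0127) that was lost without DMM replicate 2 (0.0745) or 3 (0.0648). ILMN_2844032 measured 6.50, 6.87 and 6.52 in DMM cartilage, against 6.19, 5.86 and 6.09 in contralateral cartilage. Its difference of 0.58 (SE 0.15) barely passed (adjusted p = 0.0446), and leaving out any 1 of the 6 arrays ended the call (adjusted p = 0.0531 to 0.195). Neither probe passed later in limma. ILMN_2603054 differed by 0.24 at 4 weeks (adjusted p = 0.539) and 0.45 at 8 weeks (adjusted p = 0.625), with overlapping groups. ILMN_2844032 differed by 0.45 at 4 weeks (adjusted p = 0.193) and by 0.06 at 8 weeks (adjusted p = 0.955), where its groups overlapped. Averaged over the weeks these probes differed by 0.47 (adjusted p = 0.00599) and 0.36 (adjusted p = 0.0278), and the call of ILMN_2844032 was lost without any of 7 of the 18 arrays (adjusted p up to 0.0678).

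The promoters of *Lamb1* and *Itga11* are shown because these genes had the largest differences at 2 weeks. The *Lamb1* probe and the *Itga11* probe ILMN_2701778 also kept their groups separate at all weeks, which the other *Itga11* probes did not. The sequences are the 250 bases before the annotated start of each gene, from RefSeq on GRCm38.p6, both on the plus strand: chr12:31265043-31265292 for *Lamb1* and chr9:62677605-62677854 for *Itga11*. Capitals mark a match to a searched motif on either strand.
Lamb1: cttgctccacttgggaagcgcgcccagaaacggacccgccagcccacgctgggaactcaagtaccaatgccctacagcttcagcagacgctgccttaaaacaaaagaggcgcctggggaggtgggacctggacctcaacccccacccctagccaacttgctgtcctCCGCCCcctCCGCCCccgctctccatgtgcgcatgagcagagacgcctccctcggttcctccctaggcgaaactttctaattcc
Itga11: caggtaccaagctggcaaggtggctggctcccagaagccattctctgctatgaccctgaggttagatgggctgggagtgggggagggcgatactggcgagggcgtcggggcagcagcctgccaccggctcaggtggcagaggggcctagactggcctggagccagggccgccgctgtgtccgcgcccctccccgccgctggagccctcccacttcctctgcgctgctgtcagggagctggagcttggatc
A promoter window was found for 21 of the 30 member genes, while *Nid2* and *Lamc1* were among the 9 not analysed here. The GC box (GGGCGG, read CCGCCC on the other strand) occurred at 2 places in *Lamb1* and at 0 in *Itga11*, in 9 of the 21 member windows and in 32.7% of all 32851 windows. The AP-1 motif (TGANTCA) was in 0 member windows and 6.75% of all, the Smad palindrome (GTCTAGAC) in 0 and 0.167%, and the MCAT motif (CATTCC) in 2, *Itgb1* and *Nid1*, and 12.6%. Both strands were searched, at the start listed first for each gene, and these are letter matches only.

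**Figure D3:**
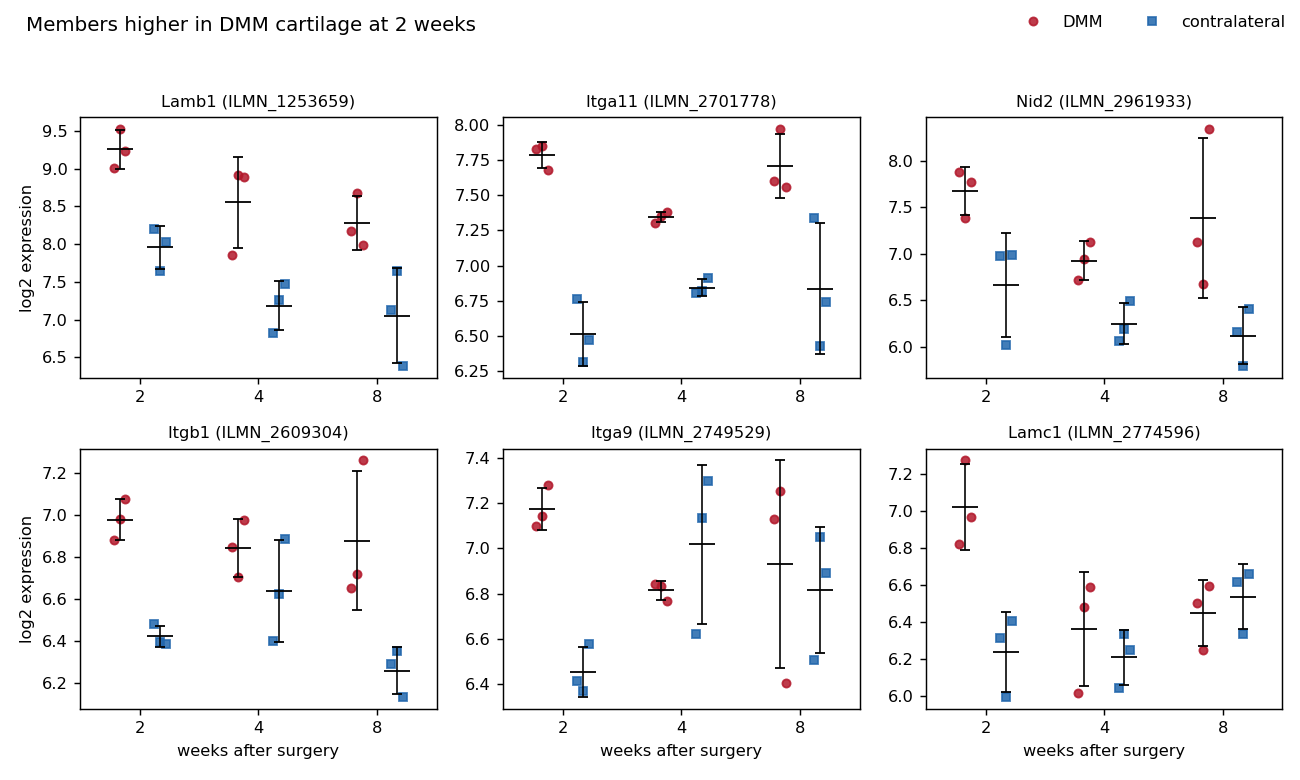
Log2 expression (vertical axis) of 6 member probes by week after surgery (horizontal axis), with DMM arrays as red circles left of contralateral arrays as blue squares; black bars give the mean and the SD of 3 arrays. *Lamb1*, *Itga11* (ILMN_2701778) and *Nid2* keep their groups apart at every week, whereas the plotted probes of *Itga9* (ILMN_2749529) and *Lamc1* (ILMN_2774596) are apart at 2 weeks and overlap at 4 and 8 weeks; the *Itgb1* probe is ILMN_2609304.

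*Itgb1* encodes the beta1 subunit, the partner of alpha1, alpha2, alpha9, alpha11 and most other matrix-binding alpha subunits. The probe ILMN_2609304 measured 6.88, 6.98 and 7.08 in DMM cartilage at 2 weeks, against 6.48, 6.40 and 6.39 in contralateral cartilage. Its groups did not overlap and the difference was 0.56 (SE 0.13, adjusted p = 0.0265). The call was lost without DMM replicate 1, 2 or 3 (adjusted p = 0.0602, 0.106 and 0.139) and without contralateral replicate 3 (0.0523). The second probe (ILMN_2789077) measured 9.51, 9.45 and 9.47 in DMM cartilage, against 9.21, 8.83 and 9.11 in contralateral cartilage. It also showed no overlap, but the difference of 0.42 (SE 0.14) did not pass (adjusted p = 0.102).

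At 4 weeks the *Itgb1* groups overlapped on both probes (0.21, SE 0.16, and 0.11, SE 0.14). At 8 weeks ILMN_2609304 measured 6.66, 6.72 and 7.26 in DMM cartilage, against 6.29, 6.35 and 6.13 in contralateral cartilage, with no overlap (0.62, SE 0.19, adjusted p = 0.464), while the second probe differed by 0.07 (SE 0.15). Over the 3 weeks ILMN_2609304 was higher by 0.46 (SE 0.09, adjusted p = 0.00328) and the second probe by 0.20 (SE 0.08, adjusted p = 0.101).

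The other collagen-binding alpha subunits, *Itga1* and *Itga2*, did not pass in any week. Their 3 probes differed by 0.16 to 0.24 at 2 weeks, with overlapping groups. *Itga1* (ILMN_2967445) had 1 high DMM array at 8 weeks, with 6.34, 6.02 and 7.66 in DMM cartilage, against 6.07, 5.78 and 6.05 in contralateral cartilage (adjusted p = 0.64).

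*Itga9* encodes alpha9, which with beta1 binds tenascin C and osteopontin. ILMN_2749529 measured 7.10, 7.14 and 7.28 in DMM cartilage at 2 weeks, against 6.41, 6.37 and 6.58 in contralateral cartilage. The difference was 0.72 (SE 0.13, adjusted p = 0.0104), and the call was lost without DMM replicate 2 (0.0528) or 3 (0.069). The probe with the higher mean (ILMN_1242427) measured 8.41, 8.92 and 9.05 in DMM cartilage, against 8.33, 8.14 and 8.12 in contralateral cartilage. These groups were also apart, with a difference of 0.60 (SE 0.17) that did not pass (adjusted p = 0.0662).

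At 4 weeks the 2 *Itga9* probes parted. ILMN_1242427 measured 8.66, 8.52 and 8.76 in DMM cartilage, against 7.72, 8.15 and 8.37 in contralateral cartilage (0.57, SE 0.17, adjusted p = 0.173). ILMN_2749529 measured 6.84, 6.83 and 6.77 in DMM cartilage, against 6.62, 7.13 and 7.30 in contralateral cartilage (-0.20, SE 0.17, adjusted p = 0.678). At 8 weeks the groups of both probes overlapped, with differences of -0.14 (SE 0.25) and 0.11 (SE 0.25). *Itga4*, whose alpha4 subunit binds VCAM-1 and fibronectin, did not pass at any week. At 4 weeks its DMM arrays lay above the contralateral arrays, by 0.44 (SE 0.16, adjusted p = 0.274).

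The RGD-binding alpha subunits recognise fibronectin, vitronectin and fibrinogen, and 0 of their 8 probes passed at any week in limma. At an unadjusted p under 0.05 there were 0 at 2 weeks, 2 lower at 4 weeks, as were 1382 of the 22999 probes, and 0 at 8 weeks. *Itgav* (ILMN_1238119), the alphaV subunit, measured 7.99, 8.17 and 8.48 in DMM cartilage at 2 weeks, against 8.41, 8.30 and 8.00 in contralateral cartilage. The groups overlapped, and the 95% confidence interval of the difference was -0.39 to 0.34. Its other 3 probes lay on the lower side at 4 weeks (-0.55, -0.39 and -0.29, adjusted p = 0.157, 0.33 and 0.554), where the first differed by 0.04 (SE 0.15). *Itga5*, the alpha5 subunit of the fibronectin receptor (ILMN_2849449), measured 6.45, 6.41 and 6.16 in DMM cartilage at 2 weeks, against 6.58, 6.69 and 6.60 in contralateral cartilage. Its DMM arrays were all below, but the difference did not pass (-0.28, SE 0.13, adjusted p = 0.25), and its other probe differed by -0.10 (SE 0.15). The platelet subunit gene *Itga2b* had overlapping groups on both probes at every week.

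Of the beta subunits that pair with alphaV, *Itgb5* measured 8.49, 8.49 and 8.26 in DMM cartilage at 2 weeks, against 8.13, 8.21 and 8.41 in contralateral cartilage, with an interval of -0.14 to 0.47. *Itgb3*, *Itgb6* and *Itgb8* did not pass either. At 2 weeks *Itgb8* measured 6.90, 7.01 and 6.80 in DMM cartilage, against 7.39, 6.13 and 6.24 in contralateral cartilage (0.31, SE 0.27, adjusted p = 0.557), and it passed without contralateral replicate 1, the high one. *Itgb8*, whose product with alphaV activates latent TGF-beta, measured 6.12, 6.23 and 6.54 in DMM cartilage at 8 weeks, against 5.87, 5.84 and 5.97 in contralateral cartilage. That difference of 0.40 (SE 0.16) left the groups apart but did not pass (adjusted p = 0.553).

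The laminin-binding subunits *Itga3*, *Itga6* and *Itgb4* did not pass at any week. *Itgb4*, which joins alpha6 in hemidesmosomes of epithelia, measured 6.26, 6.34 and 6.07 in DMM cartilage at 2 weeks, against 5.58, 6.07 and 5.34 in contralateral cartilage. Its lowest DMM array equalled the highest contralateral array to 2 decimals, and the difference was 0.56 (SE 0.18, adjusted p = 0.101). It passed with array weights and without contralateral replicate 2. *Itga6* differed by 0.17 (SE 0.13) and *Itga3* by -0.22 (SE 0.22) at 2 weeks.

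Other laminin chains moved less than *Lamb1*. *Lamc1* encodes gamma1, the gamma chain of most laminins. ILMN_2774596 measured 6.82, 7.27 and 6.97 in DMM cartilage at 2 weeks, against 6.32, 5.99 and 6.41 in contralateral cartilage. The groups were apart and the difference was 0.78 (SE 0.16, adjusted p = 0.0185), lost without DMM replicate 2 (0.097) or 3 (0.0775). The probe with the higher mean (ILMN_2974798) measured 7.90, 8.65 and 8.43 in DMM cartilage, against 7.94, 7.31 and 7.79 in contralateral cartilage. DMM replicate 1 fell just under the highest contralateral array there, and the difference of 0.65 (SE 0.21) did not pass (adjusted p = 0.104).

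At 4 and 8 weeks neither *Lamc1* probe passed. ILMN_2974798 differed by 0.46 (SE 0.21) and 0.33 (SE 0.16), and ILMN_2774596 by 0.15 (SE 0.17) and -0.09 (SE 0.17). Averaged over the weeks ILMN_2974798 was higher by 0.48 (SE 0.13, adjusted p = 0.0224), a call lost without contralateral replicate 2 or DMM replicate 2 of 2 weeks (0.0512 and 0.0561) or DMM replicate 2 or 3 of 4 weeks (0.0533 and 0.0511). ILMN_2774596 differed by 0.28 (SE 0.10, adjusted p = 0.0864).

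*Lamc3*, the gene of the gamma3 chain, was lower in DMM cartilage over the 3 weeks (-0.39, SE 0.10, adjusted p = 0.0208), though it did not pass in any single week. At 8 weeks it measured 5.82, 5.75 and 5.84 in DMM cartilage, against 6.37, 6.48 and 6.17 in contralateral cartilage. The groups were apart at 8 weeks (-0.54, SE 0.15) and overlapped at 2 and 4 weeks (-0.42, SE 0.16, and -0.20, SE 0.19). The call over the weeks was lost without DMM replicate 3 of 2 weeks (adjusted p = 0.0532) or of 4 weeks (0.0501). All *Lamc3* values, 5.46 to 6.48, lay below the array medians of 6.55 to 6.56, and signal over background was not tested.

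*Lamb2*, whose beta2 chain takes the place of beta1 in some laminins, measured 8.37, 8.33 and 8.66 in DMM cartilage at 2 weeks, against 8.23, 8.54 and 8.48 in contralateral cartilage. The groups overlapped, and the interval of the difference was -0.29 to 0.36 at 2 weeks, -0.32 to 0.26 at 4 weeks and -0.20 to 0.78 at 8 weeks. The alpha chain genes *Lama1*, *Lama2*, *Lama4* and *Lama5* held 5 probes, of which 0 passed at any week in limma. At an unadjusted p under 0.05, 1 was higher at 2 weeks, as were 2505 of the 22999 probes, 1 was lower at 4 weeks, as were 1382, and 0 differed at 8 weeks. At 2 weeks 3 of the 5, *Lama2* (ILMN_2769479), *Lama4* and *Lama5*, lay wholly above contralateral cartilage, against 13.6% of all probes. The differences of all 5 probes at 2 weeks ran between -0.24, for the other *Lama2* probe (ILMN_2565522), and 0.28.

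*Nid2* encodes nidogen-2. At 2 weeks it measured 7.88, 7.38 and 7.77 in DMM cartilage, against 6.98, 6.02 and 6.99 in contralateral cartilage. The groups were apart, contralateral replicate 2 being far below its group, and the difference was 1.02 (SE 0.25, adjusted p = 0.0331). The call was lost without DMM replicate 1, 2 or 3 (adjusted p = 0.127, 0.0683 and 0.139) and when all 18 arrays were fitted together (0.0728).

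At 4 weeks *Nid2* measured 6.72, 6.94 and 7.13 in DMM cartilage, against 6.07, 6.19 and 6.49 in contralateral cartilage (0.68, SE 0.16, adjusted p = 0.0858). At 8 weeks it measured 7.13, 6.68 and 8.34 in DMM cartilage, against 6.16, 5.80 and 6.41 in contralateral cartilage (1.26, SE 0.38, adjusted p = 0.449). No week overlapped, although DMM replicate 3 at 8 weeks stood far above its group. The mean over the weeks was 0.99 (SE 0.19), or 1.98-fold (adjusted p = 0.00212), and this call held in each of the 24 alternatives, as did those of *Lamb1* and *Itga11* (ILMN_2701778).

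*Nid1*, the gene of nidogen-1, gave opposite signs on its 2 probes. ILMN_2560756 measured 6.49, 6.60 and 6.43 in DMM cartilage at 2 weeks, against 7.15, 7.69 and 7.12 in contralateral cartilage. All DMM arrays were lower (-0.82, SE 0.17, adjusted p = 0.0168), a call lost without DMM replicate 1, 2 or 3 (0.0645, 0.0629 and 0.0922). ILMN_2814005 measured 6.80, 7.28 and 7.14 in DMM cartilage, against 6.48, 7.02 and 6.51 in contralateral cartilage, which overlapped (0.40, SE 0.18, adjusted p = 0.225).

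Over the 3 weeks ILMN_2560756 was lower (-0.45, SE 0.09, adjusted p = 0.00476), whereas ILMN_2814005 differed by 0.21 (SE 0.10, adjusted p = 0.24). With the probes of each gene averaged, *Nid1* differed by -0.21 at 2 weeks (adjusted p = 0.503) and by -0.12 over the weeks (adjusted p = 0.441). The same averaging at 2 weeks gave differences past the threshold for *Itga9* (0.66, adjusted p = 0.0187), *Itgb1* (0.49, adjusted p = 0.031) and *Lamc1* (0.71, adjusted p = 0.0494). At 4 weeks ILMN_2560756 again lay wholly below contralateral cartilage (-0.35, SE 0.15, adjusted p = 0.342). ILMN_2814005 differed by 0.28 at 4 weeks (adjusted p = 0.542). At 8 weeks both probes had negative differences, -0.18 for ILMN_2560756 and -0.06 for ILMN_2814005 (adjusted p = 0.805 and 0.929 in limma). The direction of *Nid1* at 2 and 4 weeks thus depended on the probe.

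**Figure D4:**
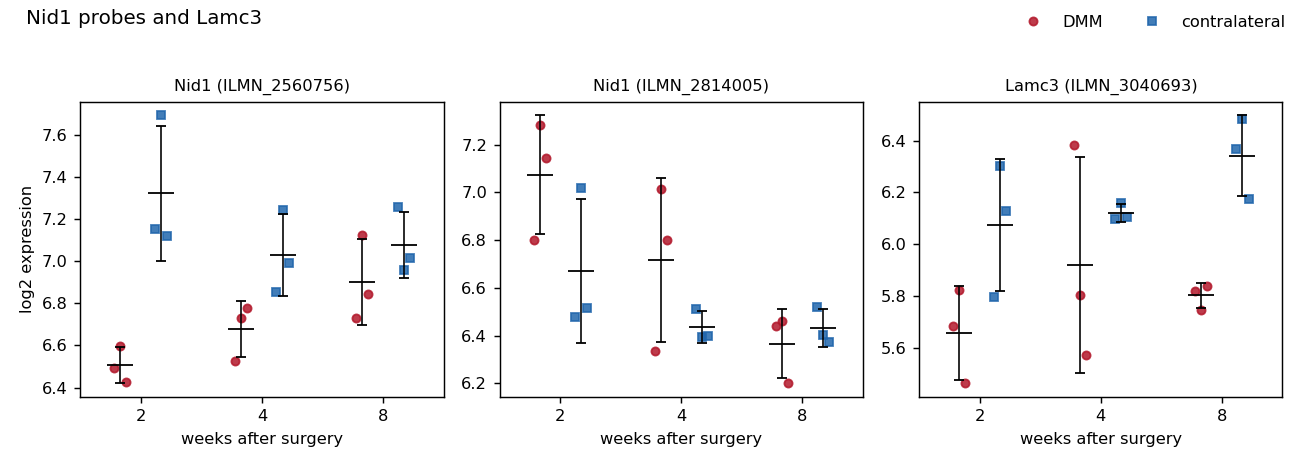
Log2 expression (vertical axis) of the 2 *Nid1* probes and of *Lamc3* by week after surgery (horizontal axis), with DMM arrays as red circles left of contralateral arrays as blue squares; black bars give the mean and the SD of 3 arrays. At 2 weeks ILMN_2560756 is at 6.43 to 6.60 in DMM and 7.12 to 7.69 in contralateral cartilage, while ILMN_2814005 has its higher mean in DMM cartilage.

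None of the 4 probes of leukocyte integrin subunits passed against contralateral cartilage at any week in the limma fit of each pair of groups. At 4 weeks 3 of the 4 lay wholly above it, against 9.18% of all probes, and the same 3 were higher at an unadjusted p under 0.05, as were 1613 of the 22999 probes. *Itgb7*, the partner of alpha4 and alphaE on lymphocytes, measured 6.16, 6.08 and 6.95 in DMM cartilage at 4 weeks, against 5.66, 5.07 and 5.15 in contralateral cartilage (1.11, SE 0.23, adjusted p = 0.0603). Under robust variances with an intensity trend *Itgb7* passed at 4 weeks. *Itgb2*, the beta2 subunit shared by leukocyte integrins, measured 7.41, 7.67 and 7.99 in DMM cartilage, against 7.13, 6.98 and 7.36 in contralateral cartilage (0.53, SE 0.17, adjusted p = 0.198). *Itgam*, the alphaM subunit of neutrophils and macrophages, was the fourth, and its groups overlapped at each week (0.23, -0.22 and 0.62 at 2, 4 and 8 weeks).

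*Itgb2l* is a mouse relative of *Itgb2* known from maturing neutrophils. In DMM cartilage it measured 5.38, 5.21 and 5.58 at 2 weeks, 6.31, 6.26 and 6.34 at 4 weeks and 6.20, 5.66 and 5.08 at 8 weeks. In contralateral cartilage the values were 5.37, 5.59 and 5.41 at 2 weeks, 6.04, 5.48 and 5.99 at 4 weeks and 6.04, 5.90 and 5.99 at 8 weeks. All these *Itgb2l* values lay below the array medians of 6.55 to 6.56, and signal over background was not tested. The 4-week DMM pools were above the 2-week DMM pools by 0.92 (SE 0.13, adjusted p = 0.00138) and above the contralateral pools of 4 weeks by 0.47 (SE 0.16, adjusted p = 0.235).

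Between DMM weeks, 4 against 2, *Itgb2l* rose and 2 members fell, where 1.79% of all probes rose and 0.752% fell. *Lama2* (ILMN_2769479), the alpha2 chain of muscle and nerve laminins, measured 5.89, 5.82 and 5.79 in DMM cartilage at 4 weeks, against 6.51, 6.43 and 6.52 at 2 weeks (-0.65, SE 0.11, adjusted p = 0.00762). The call was lost without DMM replicate 3 of 2 weeks (0.0514) and when all 18 arrays were fitted together (0.0727), and the other *Lama2* probe (ILMN_2565522) differed by 0.42 (adjusted p = 0.12). *Nid2* also fell between these weeks (-0.75, SE 0.16, adjusted p = 0.0232), a call lost without DMM replicate 1 or 3 of 2 weeks (0.105 and 0.125), without replicate 1 of 4 weeks (0.0888) and when all 18 arrays were fitted together (0.502). In contralateral cartilage *Lama2* at 4 weeks was 5.67, 5.36 and 6.07, against 6.27, 6.22 and 6.13 at 2 weeks, which did not pass (-0.50, adjusted p = 0.575).

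Neutrophil markers moved with this comparison. Of 13 measured, 11 rose in DMM cartilage at 4 against 2 weeks, where 2.29% of all genes by their probe with the highest mean rose and 0.826% fell. Their mean level was 8.82 to 8.87 in DMM cartilage at 4 weeks and 6.35 to 7.09 at 2 weeks. In contralateral cartilage, where 4 of 13 rose, it was 7.84 to 8.46 at 4 weeks and 6.91 to 7.26 at 2 weeks. All 4 erythroid markers and 12 of 14 skeletal muscle markers measured also rose in DMM cartilage at 4 against 2 weeks. The erythroid mean level was 8.40 to 8.87 at 4 weeks and 6.64 to 7.04 at 2 weeks in DMM cartilage. It was 7.53 to 8.60 and 7.25 to 7.97 in contralateral cartilage. Platelet markers had a mean level of 7.43 to 7.98 in DMM cartilage at 4 weeks, against 6.64 to 6.95 at 2 weeks. Fibroblast and synovium markers were at 9.93 to 10.42 in DMM cartilage at 4 weeks, against 10.61 to 10.76 at 2 weeks, and endothelial markers at 6.20 to 6.56, against 6.60 to 6.73. The part of these lists in the *Itgb2l*, *Lama2* and *Nid2* values was not tested.

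**Figure D5:**
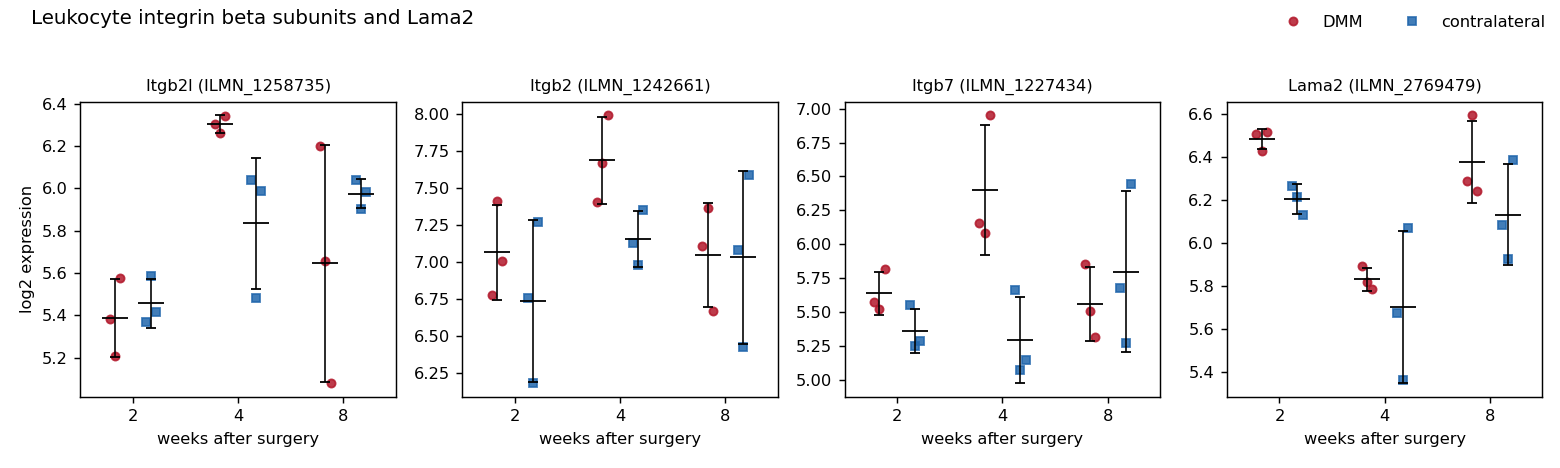
Log2 expression (vertical axis) of *Itgb2l*, *Itgb2*, *Itgb7* and *Lama2* by week after surgery (horizontal axis), with DMM arrays as red circles left of contralateral arrays as blue squares; black bars give the mean and the SD of 3 arrays. The 3 DMM arrays at 4 weeks lie at 6.26 to 6.34 for *Itgb2l* and at 5.79 to 5.89 for *Lama2*, above and below the 2-week DMM arrays.

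In the other comparisons between weeks 0 members passed in limma. Past the adjusted threshold were 0.639% of all probes for DMM 8 against 2 weeks and 0.0739% for DMM 8 against 4 weeks. At an unadjusted p under 0.05, DMM 8 against 2 weeks had 3 members higher and 10 lower, and 1391 and 1729 of the 22999 probes. At the same limit DMM 8 against 4 weeks had 6 members higher and 4 lower, and 1108 and 1367 of all probes. *Lamb1* had the largest fall from 2 to 8 weeks among the members (-0.98, SE 0.20, adjusted p = 0.0734). Within contralateral cartilage 0.148% of all probes passed the adjusted threshold at 4 against 2 weeks, 0% at 8 against 2 weeks and 0% at 8 against 4 weeks. At an unadjusted p under 0.05 the first gave 2 members higher and 4 lower, and 856 and 830 of all probes. At 8 against 2 weeks there were 1 and 2 members, and 790 and 870 of all probes, and at 8 against 4 weeks 0 and 4 members, and 829 and 860 of all probes.

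The difference itself was then compared between weeks. The DMM effect changed past the threshold for 0 members and 0% of all probes at 4 against 2, at 8 against 2 and at 8 against 4 weeks (limma). At an unadjusted p under 0.05 the signed difference was higher for 2 members and lower for 4 at 4 than at 2 weeks, and for 663 and 587 of the 22999 probes. At 8 against 2 weeks it was higher for 1 member and lower for 4, and for 1165 and 1254 of all probes. At 8 against 4 weeks it was higher for 2 and lower for 3, and for 894 and 848 of all probes. Among members the smallest adjusted p values at these later comparisons belonged to *Lamc1* (ILMN_2774596) at 8 against 2 weeks (-0.87, SE 0.25, adjusted p = 0.275) and *Itgb7* at 8 against 4 weeks (-1.34, SE 0.37, adjusted p = 0.489). That a member passed at 2 weeks and not later is thus not shown to be a change.

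Genes that work beside these families were read from 3 lists, by the probe with the highest mean. Of the other basement membrane proteins 18 of 25 were measured, and at 2 weeks 6 rose and 1 fell, where 4.07% of all genes rose and 3.16% fell. *Col15a1* (0.96, SE 0.16, adjusted p = 0.00646) and *Col18a1* (0.91, SE 0.14, adjusted p = 0.00522), collagens of the basement membrane zone, rose most. *Ntn4*, the gene of netrin-4, which binds laminin gamma1, fell by 1.04 (SE 0.15, adjusted p = 0.00395) and was again lower at 4 weeks (-0.76, adjusted p = 0.0303), the only call of the list there. The type IV collagen genes *Col4a1* and *Col4a2* (0.66 and 0.51, adjusted p = 0.0208 and 0.0405), *Hspg2* of perlecan (0.71, adjusted p = 0.0134) and *Fbln2* of fibulin-2 (0.84, adjusted p = 0.00909) were the others that rose. The list had a median difference of 0.19 at 2 weeks, against 0.01 for all genes.

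Non-integrin laminin receptors were measured for 10 of 15 genes, of which 2 rose and 1 fell at 2 weeks. *Sdc1* of syndecan-1 was higher by 1.24 (SE 0.13, adjusted p = 0.001) and *Sdc2* by 0.79 (SE 0.18, adjusted p = 0.0269), and *Sdc4*, the syndecan of focal adhesions, was lower (-0.74, SE 0.13, adjusted p = 0.00726). *Sdc1* passed at 4 weeks too (0.67, adjusted p = 0.0496), where 0.452% of all genes rose and 0.348% fell. The dystroglycan gene *Dag1* did not pass at 2 weeks (adjusted p = 0.131).

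Integrin adaptors and focal adhesion proteins, which tie integrin tails to actin, were measured for 35 of 40 genes, with 4 risen and 2 fallen at 2 weeks. *Flnc* of filamin C (0.76, SE 0.16, adjusted p = 0.0172) and *Itgb1bp1* (0.56, SE 0.14, adjusted p = 0.0417) rose most, and *Actn3* of alpha-actinin-3 (-1.20, SE 0.30, adjusted p = 0.0381) and *Kank1* (-0.86, SE 0.15, adjusted p = 0.00774) fell. *Actn3* is also 1 of the skeletal muscle markers, and it was the only call of the list at 4 weeks (-2.08, adjusted p = 0.000296). Over the 3 weeks the counts up and down were 5 and 1 for basement membrane proteins, 2 and 1 for laminin receptors and 5 and 3 for adaptors, where 6.07% of all genes were higher and 5.04% lower. At 8 weeks none of the 3 lists had a gene past the threshold in limma.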

How the data were processed

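RNA from pooled cartilage was amplified and hybridised to Illumina Mouse WG-6 v2.0 arrays. The authors deposited log2 expression values of 22999 probes on 18 arrays, quantile-normalised with lumi 2.8.0 in R 2.15.0 per their methods. Probes were selected with the same software and arrays were assigned to beadchips at random, per the methods; the threshold of that selection and the beadchip of each array were not given in the sources used here. A second table of unnormalised values was not used, since the names of its 36 columns matched no label. No signal over background was therefore tested, and the number of arrays limits the precision. GEO's platform annotation, which can be old, gave 1 symbol for 18998 probes and several for 6, and 3995 were unnamed.

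Each pair of groups was compared in its own fit of 6 arrays with limma 3.58.1 (R 4.3.3) on all probes, with Benjamini-Hochberg adjusted p-values. The mean of the 3 weeks and the change between weeks came from 1 fit of all 18 arrays. Alternatives were quantile normalisation of only the compared arrays, cyclic loess, 1 fit throughout, robust variances with an intensity trend, array weights, the probes above the median mean, the mean of a gene's probes, the replicate number as a block and each array left out. The scripts were tested on simulated data. Named were members past the threshold, with all their probes, examples of each role, and from each list of other genes those with the largest changes past the threshold. The members and lists were chosen with earlier results of these data known. An exact permutation test of 3 against 3 arrays cannot go below p = 0.1.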

Additional observations from a re-analysis of the deposited data

How the results depend on the processing

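The count of 9 members past the threshold at 2 weeks ranged from 2 to 10 when arrays were left out in turn, and the 4-week count of 1 from 0 to 1. Calls among all probes then ranged from 390 to 1574 at 2 weeks and from 50 to 192 at 4 weeks. Over the 3 weeks the 9 became 7 to 11, for DMM 4 against 2 weeks the 3 became 1 to 4, and for DMM 8 against 2 weeks the 0 became 0 to 1. The ranges among all probes were 1743 to 2486, 313 to 600 and 1 to 202 in that order. In 1 fit of all 18 arrays the counts were 0 at 4 weeks, 1 at 8 weeks (*Itga11* ILMN_2701778, adjusted p = 0.0458) and 1 for DMM 4 against 2 weeks. Of all probes 36, 112 and 203 passed in these comparisons. Array weights gave 0 members at 4 weeks, where 134 of all probes passed. For DMM 8 against 2 weeks *Lamb1* alone passed with an intensity trend (1), with the probes above the median mean (1) and with the replicate block (1). Calls among all probes in these settings were 246, 257 and 96. Deviations of same-numbered DMM and contralateral arrays of a week correlated at -0.10 to 0.13, and those of differently numbered arrays at -0.098 to 0.096. With so few pools these values cannot tell whether equal numbers share mice. With the replicate number as a block 7 members passed at 2 weeks (*Itgb1* and *Itga11* ILMN_2844032 were lost), 2 at 4 weeks (*Nid2* joined *Lamb1*, adjusted p = 0.0437), 8 over the 3 weeks and 7 for DMM 4 against 2 weeks. The block gave 1414, 341, 2052 and 647 calls among all probes in these comparisons. For DMM 4 against 2 and 8 against 2 weeks it joined equally numbered pools of different mice, so no shared mice underlie it there. At 2 weeks *Itgb4*, *Itgb8*, *Itga9* ILMN_1242427 or *Nid1* ILMN_2814005 passed in some alternatives, and at 4 weeks an intensity trend exchanged *Lamb1* for *Itgb7*. The cause of these shifts was not tested.

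Signs turned only at 8 weeks and only when an array was left out, in probes not past the threshold. *Itga11* ILMN_2844032 then ran from -0.10 to 0.23 (reversed at -0.02, -0.02 and -0.10), *Itga9* ILMN_1242427 from -0.37 to 0.064, *Itga9* ILMN_2749529 from -0.050 to 0.38 (reversed at -0.04 and -0.050), *Lamc1* ILMN_2774596 from -0.19 to 0.011 and *Nid1* ILMN_2814005 from -0.11 to 0.018. For the named probes 844 alternative values kept direction and side of the threshold, 57 lost a call, 12 gained one and 8 turned sign.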
